A study of Mus musculus with 32 samples.

Results

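The 39 genes described here encode the folding, quality control and stress sensing machinery of the endoplasmic reticulum (ER) in mouse liver. They were chosen by symbol: each row of the deposited count tables whose gene symbol was on a list of 39 ER chaperones, ER-associated degradation (ERAD) factors and unfolded protein response genes was a member. All 39 were found among the 41585 gene rows, and all 39 passed the filter on low counts in both sexes. RNA-seq was run on 32 livers of C57BL/6 mice (C57Bl/6J in the study's methods), 4 in each of 8 groups formed by genotype, diet and sex. WT mice and Cyp2b-null mice, which lack Cyp2b9, Cyp2b10 and Cyp2b13 in every tissue after CRISPR deletion, were fed normal chow (ND) or CDAHFD, a diet rich in fat (62%) and poor in methionine (0.1%) that lacks choline and gives its protein as free amino acids, for 8 weeks, from 10 weeks of age. CDAHFD is a model of nonalcoholic steatohepatitis, in which fat, inflammation and scarring build up in the liver. WT mice were purchased and Cyp2b-null mice came from the study's own colony, so genotype and colony cannot be told apart. No label states that the livers of a group came from separate litters or cages, and p-values measure the spread between these livers.

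Hepatocytes secrete most plasma proteins, and each of these proteins is threaded through the Sec61 channel into the ER, folded there by chaperones and oxidized by protein disulfide isomerases. Proteins that fail to fold are marked, pulled back to the cytosol and degraded, a route called ERAD. When unfolded protein accumulates, the sensors IRE1 (Ern1), PERK (Eif2ak3) and ATF6 (Atf6) are activated: IRE1 splices Xbp1 mRNA, ATF6 is cut by the Golgi protease S1P (Mbtps1), and PERK slows translation and raises ATF4. Spliced XBP1 and cleaved ATF6 are best known for binding ER stress response elements in the promoters of chaperone and ERAD genes. Counts per gene do not show splicing of Xbp1, cleavage of ATF6 or phosphorylation of PERK.

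The promoters of some of these genes carried that element, and 4 promoters with a match are shown. Of the 4 diet comparisons below, Hspa5 was called lower in 2, Creld2 in 3, and Hsp90b1 and Herpud1 in 4. RefSeq promoter windows (GRCm38.p6), from 250 bases before to 50 bases after the annotated start, were on hand for 32 of the 39 members. The ER stress response element (ERSE) was searched as CCAAT and CCACG parted by 9 bases of any kind, ERSE-II as ATTGG and CCACG parted by 1 base of any kind, and the unfolded protein response element (UPRE) as TGACGTGG, on both strands. The CCACG that ends ERSE also ends ERSE-II. Given 5′ to 3′ on the gene's strand are the 250 bases before the start of Hspa5 (chr2:34771840-34772089, + strand), Hsp90b1 (chr10:86705445-86705694, - strand), Creld2 (chr15:88819396-88819645, + strand) and Herpud1 (chr8:94386179-94386428, + strand). Capitals mark the fixed letters of the motif, which read as their reverse complement where the motif lies on the opposite strand.
Hspa5: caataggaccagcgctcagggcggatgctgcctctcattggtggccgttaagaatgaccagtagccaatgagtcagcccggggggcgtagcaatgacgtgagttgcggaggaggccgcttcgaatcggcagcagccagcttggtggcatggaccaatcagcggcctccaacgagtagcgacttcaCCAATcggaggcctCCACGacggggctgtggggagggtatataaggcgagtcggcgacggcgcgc
Hsp90b1: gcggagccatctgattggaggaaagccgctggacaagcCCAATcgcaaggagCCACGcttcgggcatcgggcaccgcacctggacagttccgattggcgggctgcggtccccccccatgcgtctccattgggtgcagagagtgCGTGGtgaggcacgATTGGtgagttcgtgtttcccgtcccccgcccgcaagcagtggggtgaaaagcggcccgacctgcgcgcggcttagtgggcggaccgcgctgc
Creld2: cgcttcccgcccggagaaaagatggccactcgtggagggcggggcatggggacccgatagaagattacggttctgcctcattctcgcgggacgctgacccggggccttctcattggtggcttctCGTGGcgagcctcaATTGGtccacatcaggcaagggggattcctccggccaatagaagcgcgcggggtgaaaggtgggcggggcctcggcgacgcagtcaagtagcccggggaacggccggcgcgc
Herpud1: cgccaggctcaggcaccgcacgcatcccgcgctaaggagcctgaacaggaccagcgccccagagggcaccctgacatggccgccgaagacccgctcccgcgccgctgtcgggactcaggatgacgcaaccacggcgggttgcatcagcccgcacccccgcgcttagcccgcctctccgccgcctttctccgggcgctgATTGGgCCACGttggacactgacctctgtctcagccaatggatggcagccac

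ERSE was present in the windows of 9 of 32 members (28.1%), against 0.137% of the 27025 genes with a window. ERSE-II was present in 2 of 32 (6.25%), Herpud1 and Dnajb11, against 0.0444% of genes. UPRE was present in 1, the AAA ATPase gene Vcp, against 0.714% of genes. The element is best known from promoters of chaperone and ERAD genes, the kind chosen here, so these shares are no independent result. The matched bases are listed in the direction of the motif, with its fixed letters in capitals, because the spacer between CCAAT and CCACG differed in every member.
Hspa5: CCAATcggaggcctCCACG
Hsp90b1, 212 bases before the start: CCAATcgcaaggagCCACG
Hsp90b1, 107 bases before the start: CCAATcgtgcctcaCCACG
Dnajc3: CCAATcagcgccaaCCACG
Creld2: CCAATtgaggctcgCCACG
Pdia6: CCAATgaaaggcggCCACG
Calr: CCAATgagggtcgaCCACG
Canx: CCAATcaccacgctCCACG
Syvn1: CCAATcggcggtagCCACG
Derl3: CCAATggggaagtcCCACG
Herpud1, ERSE-II: ATTGGgCCACG
Dnajb11, ERSE-II: ATTGGcCCACG
These ERSE matches began 44 (Syvn1) to 212 (Hsp90b1) bases before the start, and 6 of the 10 lay on the strand of the gene. A match is a description of letters and does not show that a factor binds there. Where no match was found, only these letters were missing from this window.

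Library totals ranged from 2906411 to 10166959 counts on genes. Levels are counts scaled to a fixed library total after TMM scaling over all 32 libraries (CPM), and 3 counts corresponded to 0.250 to 1.15 CPM, which covers counting error only. The genotype labels were checked on Cyp2b9, Cyp2b10 and Cyp2b13. In Cyp2b-null females the means were 1.39, 0.793 and 0 CPM on ND, against 585, 71.7 and 378 CPM in ND-fed WT females. In males Cyp2b10 separated the genotypes on ND (11.3 CPM in WT, 0.471 CPM in Cyp2b-null) and Cyp2b9 on CDAHFD (47.0 and 0.525 CPM). The hepatocyte markers Alb, Apoa1, Apob, Serpina1c, Tat and Ttr summed to 59932 CPM or more in every library. Replicates were not interchangeable for the ER genes. ND-fed WT female replicate 1 was the highest of its 4 livers for 26 of 39 members and for 9 of 9 chaperones, against 23.5% of all genes, and replicate 4 was the lowest for 9 of 9 chaperones. CDAHFD-fed WT male replicate 1 was the highest of its group for 9 of 9 chaperones. No label gives a batch.

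The first question was how the diet changed these genes in each genotype and sex. In WT females 2 of 39 members were higher and 11 lower with CDAHFD (adjusted p under 0.05), where 13.9% of all 13226 genes tested were higher and 10.2% lower. In Cyp2b-null females 2 were higher and 12 lower, against 16.9% and 13.9% of all genes. WT males had 4 higher and 13 lower members, against 18% and 15% of the 13460 genes tested in males. Cyp2b-null males had 4 higher and 15 lower members, against 20.3% and 17.1%. The share of members called lower was thus above the share of all genes called lower in each comparison, and the share called higher was below it. The list was chosen with earlier results of these data known, so these shares are a description and no independent test. The median log2 change of the members was -0.16 in WT females, -0.29 in Cyp2b-null females, -0.23 in WT males and -0.23 in Cyp2b-null males, where the median of all genes lay between -0.023 and 0.027.

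This split depended on the scaling. When counts were scaled by library size alone, the median of all genes moved to 0.32, 0.28, 0.37 and 0.36 in the same order (WT females, Cyp2b-null females, WT males, Cyp2b-null males), and the members called higher and lower became 9 and 3, 7 and 7, 10 and 7, and 14 and 3. With that scaling 4401 and 4685 of the 13226 genes tested in females were called in either direction, in WT and Cyp2b-null mice. In males the counts were 5691 and 5977 of 13460. Library size counts of single roles below stand beside these totals. Relative to the shift of the all-gene median the members kept their place, with medians 0.16, 0.31, 0.21 and 0.24 log2 units under the median of all genes. Diet changes below are therefore changes relative to the bulk of the liver transcriptome. Beside them, the summed hepatocyte markers fell from 156290 ± 26859.9 to 91191 ± 11715 CPM (mean ± SD of 4) in WT females and from 134036 ± 6885 to 86142 ± 20987 in WT males. The summed macrophage markers rose from 285 ± 57.5 to 852 ± 124 CPM in WT females and from 123 ± 40.9 to 1056 ± 324 in WT males, with 4 of 6 tested called higher and 1 lower in each comparison. Stellate and fibroblast markers rose from 121 ± 26.6 to 487 ± 114 CPM in WT males, with 5 of 6 called higher in each of the 4 comparisons. In bulk liver, fewer hepatocytes and less RNA per hepatocyte cannot be told apart.

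A set of 7 members was lower in all 4 diet comparisons: Hsp90b1, Hyou1, Herpud1, Edem1, Sel1l, Derl2 and Atp2a2. By comparison, 582 of the 12978 genes tested in both sexes were lower in all 4 and 1179 were higher in all 4. No member was higher in all 4, 23 were lower in at least 1 and 7 were higher in at least 1. None was called in opposite directions, and 9 were called in none: Sdf2l1, Pdia6, Xbp1, Derl1, Derl3, Os9, Sec61b, Ssr1 and Ssr2. Of the 7, Edem1, Sel1l and Atp2a2 kept the call in each of the 32 fits that left out a single library (8 per comparison). The call was lost in 1 of 32 such fits for Herpud1, 5 for Hsp90b1, 6 for Derl2 and 10 for Hyou1. With library size scaling every one of the 7 lost at least 1 call, and none was lower in all 4: Atp2a2 lost 1, Hsp90b1, Herpud1, Sel1l and Derl2 lost 2 each, and Edem1 and Hyou1 lost 3 each.

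**Figure D1:**
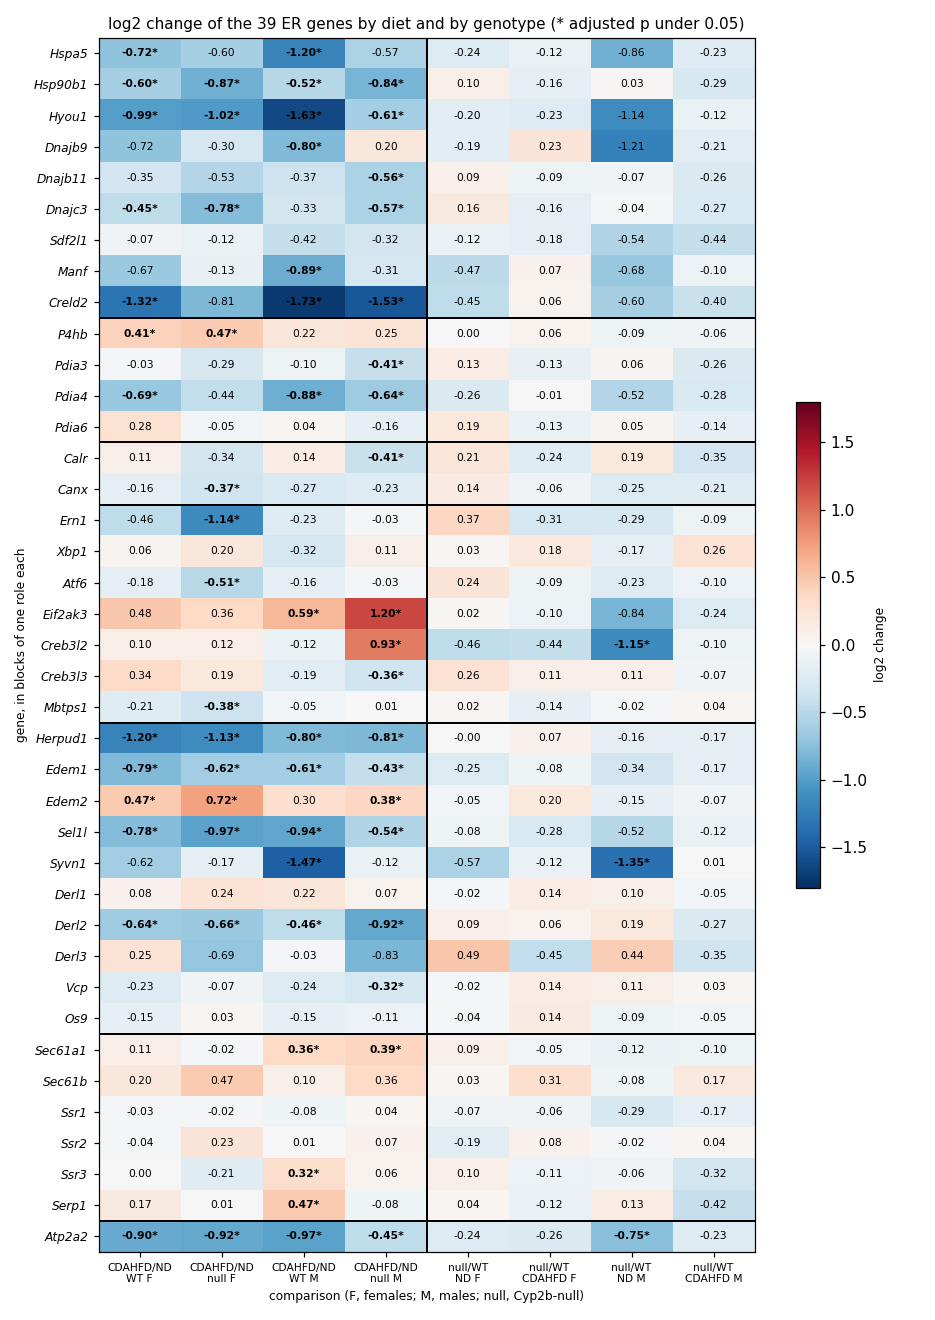
Heat map of the log2 change of the 39 ER genes (rows, in blocks by role) in 4 diet comparisons (CDAHFD over ND) and 4 genotype comparisons (Cyp2b-null over WT), each between 2 groups of 4 livers. Blue is lower, red is higher, and an asterisk marks an adjusted p under 0.05. The top block (chaperones) is blue in every diet cell but the one for Dnajb9 in Cyp2b-null males, the translocation block near the bottom is pale or red, and the column for ND-fed males holds the 3 genotype calls.

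All 9 chaperones had a negative log2 change in WT females, Cyp2b-null females and WT males, and 8 of 9 in Cyp2b-null males. With library size scaling these counts became 8, 7, 7 and 6 of 9, and relative to the median of all genes 9, 9, 9 and 8. Called lower were 5 of 9 in WT females, 3 of 9 in Cyp2b-null females, 6 of 9 in WT males and 5 of 9 in Cyp2b-null males. In the same order 0, 2, 3 and 2 of 9 were called lower with library size scaling, and none was called higher with either scaling. Their summed level was 3483 ± 1219 CPM in ND-fed and 2173 ± 345 CPM in CDAHFD-fed WT females. In WT males it was 4731 ± 887 on ND and 2559.7 ± 485 on CDAHFD, with no overlap between the livers of the 2 diets.

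**Figure D2:**
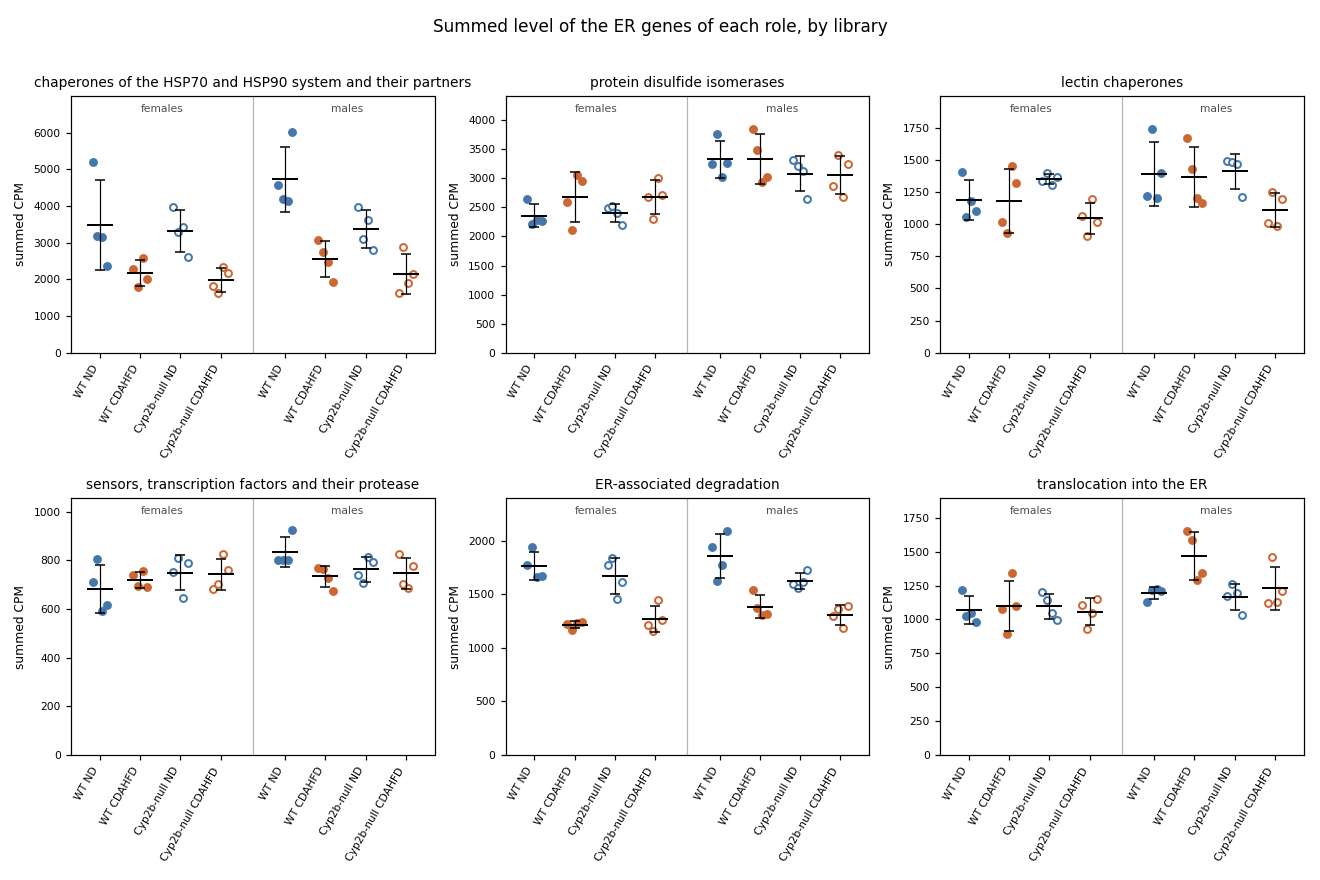
Summed CPM of the members of 6 roles in each of 32 livers (points; filled, WT; open, Cyp2b-null; blue, ND; orange, CDAHFD), with the mean (bar) and SD of 4. Chaperone sums separate the diets in Cyp2b-null females and WT males, ERAD sums separate the 2 diets without overlap in all 4 comparisons, and the sums of sensors and of translocation genes overlap between diets except in WT males, where sensors are lower and translocation genes higher.

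Hspa5 (chr2:34772090-34776529; gene positions are RefSeq's on GRCm38.p6) encodes BiP, the ER HSP70 chaperone that holds the sensors inactive. Its level in replicates 1 to 4 was 1978, 1110.1, 1089 and 726 CPM in ND-fed WT females and 808, 639.5, 820.1 and 652 CPM after CDAHFD. In Cyp2b-null females it was 1406, 843, 1078 and 823 on ND and 575, 510.5, 839.9 and 759.8 on CDAHFD. ND-fed WT female replicate 1 stood well above its group, and replicate 4 lay among the CDAHFD-fed livers. WT males had 1898, 1479, 1646 and 2666 CPM on ND and 998, 878, 885 and 582 on CDAHFD, and these groups did not overlap. Cyp2b-null males had 1089, 842, 1327 and 967 CPM on ND and 444, 1110.2, 653 and 635 on CDAHFD, where CDAHFD-fed replicate 2 lay within the ND range. Hspa5 fell in WT females (change of -0.72 ± 0.24 on the log2 scale, adjusted p = 0.0300) and in WT males (change of -1.20 ± 0.24 on the log2 scale, adjusted p = 0.000529). The values in Cyp2b-null mice were -0.60 ± 0.24 in females (adjusted p = 0.0580) and -0.57 ± 0.24 in males (adjusted p = 0.0646). The call in WT females was lost without ND-fed WT replicate 1 or CDAHFD-fed WT replicates 2 or 4 (log2 change -0.67 to -0.39, adjusted p = 0.0809 to 0.201). In the Cyp2b-null groups the call was gained without ND-fed Cyp2b-null replicate 4 or CDAHFD-fed Cyp2b-null replicate 3 (log2 change -0.72 to -0.70, adjusted p = 0.0398 to 0.0462) in females and ND-fed Cyp2b-null replicate 2 or CDAHFD-fed Cyp2b-null replicate 2 (log2 change -0.87 to -0.67, adjusted p = 0.00431 to 0.0496) in males.

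Hyou1 (chr9:44379490-44392369), the large HSP70 relative ORP150 that exchanges nucleotide on BiP, was called lower in all 4 comparisons with TMM scaling, and only in WT males with library size scaling. ND-fed WT females had 427, 249, 165 and 139.8 CPM and CDAHFD-fed WT females 149, 90.4, 162 and 83.1. The corresponding livers of Cyp2b-null females had 317, 181, 206 and 152 on ND and 89.3, 65.8, 117 and 141 on CDAHFD. Among females the Cyp2b-null mice separated fully by diet and WT mice did not, because ND-fed WT replicates 3 and 4 lay at or near the CDAHFD levels. In WT males the levels were 499, 452, 487 and 853 on ND and 232, 181, 204 and 121 on CDAHFD, without overlap, and ND replicate 4 was far above the rest. In Cyp2b-null males they were 302, 217, 294 and 226 on ND and 117, 246, 155 and 159 on CDAHFD, with CDAHFD replicate 2 inside the ND range. The fall was -0.99 ± 0.31 in WT females (adjusted p = 0.0244), -1.02 ± 0.31 in Cyp2b-null females (0.0179), -1.63 ± 0.23 in WT males (1.43e-05) and -0.61 ± 0.23 in Cyp2b-null males (0.0398). In WT females it was not called without ND-fed WT replicate 1 or CDAHFD-fed WT replicates 2 or 4 (log2 change -0.88 to -0.58, adjusted p = 0.0777 to 0.172). In Cyp2b-null females the same held without ND-fed Cyp2b-null replicate 1 or CDAHFD-fed Cyp2b-null replicate 2 (log2 change -0.85 to -0.77, adjusted p = 0.0619 to 0.0783), and in Cyp2b-null males without ND-fed Cyp2b-null replicates 1 or 3 or CDAHFD-fed Cyp2b-null replicates 1, 3 or 4 (log2 change -0.58 to -0.47, adjusted p = 0.0827 to 0.130). The Cyp2b-null male call was also lost in the fit of all 8 groups (adjusted p = 0.103), without the 2 libraries that the heat maps of the study leave out (0.0827) and with the replicate number as a block (0.0580).

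Creld2 (chr15:88819646-88826681), an ER stress inducible factor with isomerase activity, was called lower in WT mice of both sexes and in Cyp2b-null males. Its level was 177, 63.5, 48.5 and 28.8 CPM in ND-fed WT females and 31.1, 29.04, 39.5 and 26.4 in CDAHFD-fed WT females. Cyp2b-null females had 74.1, 68.2, 62.98 and 30.1 on ND and 21.9, 19.4, 54.1 and 35.8 on CDAHFD. The female mean on ND rested largely on WT replicate 1, and in both genotypes ND replicate 4 lay within the CDAHFD range. WT males had 76.7, 42.7, 77.4 and 128 on ND and 29.6, 21.4, 24.4 and 21.8 on CDAHFD. Cyp2b-null males had 70.6, 45.3, 59.4 and 35.7 on ND and 14.2, 22.3, 18.2 and 18.5 on CDAHFD. In males the diets did not overlap in either genotype. Creld2 fell in WT females (change of -1.32 ± 0.41 on the log2 scale, adjusted p = 0.0235), WT males (change of -1.73 ± 0.25 on the log2 scale, adjusted p = 1.89e-05) and Cyp2b-null males (change of -1.53 ± 0.25 on the log2 scale, adjusted p = 6.59e-05), and its value in Cyp2b-null females was -0.81 ± 0.41 (adjusted p = 0.147). The WT female call was lost without ND-fed WT replicate 1 or CDAHFD-fed WT replicates 2 or 4 (log2 change -1.29 to -0.53, adjusted p = 0.0560 to 0.295).

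The remaining chaperones are given by their group values. Hsp90b1 encodes GRP94, the ER HSP90, and its group means fell from 1208 ± 268 to 781 ± 141 CPM in WT females and from 1303 ± 311 to 727 ± 141 CPM in Cyp2b-null males. Its log2 changes were -0.60, -0.87, -0.52 and -0.84 in WT females, Cyp2b-null females, WT males and Cyp2b-null males, all called. The WT male call was lost without ND-fed WT replicates 1, 2 or 4 or CDAHFD-fed WT replicates 3 or 4 (log2 change -0.53 to -0.40, adjusted p = 0.0521 to 0.119). Dnajc3 (p58IPK, a BiP co-chaperone) fell in WT females (-0.45), Cyp2b-null females (-0.78) and Cyp2b-null males (-0.57). The WT female call for Dnajc3 was lost without ND-fed WT replicates 1 or 2 or CDAHFD-fed WT replicates 1 or 2 (log2 change -0.45 to -0.34, adjusted p = 0.0603 to 0.130). Dnajb11, also a BiP co-chaperone, was called only in Cyp2b-null males (-0.56), and the difference from the other groups was not called in any interaction or sex test. Manf, a secreted ER stress protein, fell in WT males (-0.89, adjusted p = 0.0130). Dnajb9 (ERdj4) fell in WT males too (-0.80, adjusted p = 0.0410), but not without ND-fed WT replicates 1, 3 or 4 or CDAHFD-fed WT replicates 2, 3 or 4 (log2 change -0.84 to -0.61, adjusted p = 0.0542 to 0.144), and ranged from 48.6 to 157 CPM within the ND-fed group. Sdf2l1, a partner of ERdj proteins, was not called, with log2 changes of -0.069 to -0.42.

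**Figure D3:**
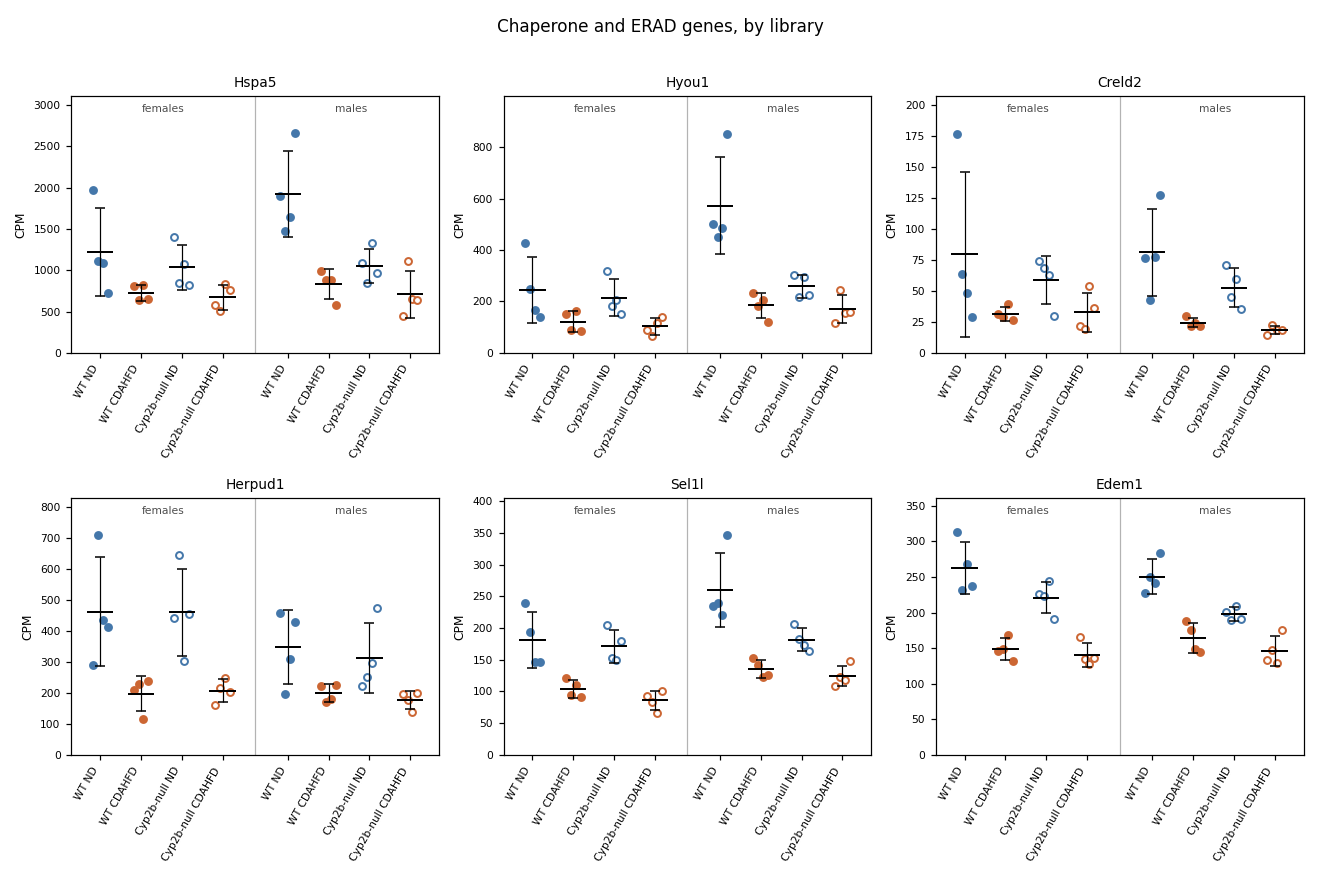
CPM of 3 chaperone genes (Hspa5, Hyou1, Creld2) and 3 ERAD genes (Herpud1, Sel1l, Edem1) in each of 32 livers, drawn as in the plot of summed levels. ND-fed WT female replicate 1 is the highest female in the Hspa5, Hyou1 and Creld2 panels, while for Edem1 the ND-fed and CDAHFD-fed livers separate in all 4 comparisons.

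Protein disulfide isomerases moved in both directions with TMM scaling. With library size scaling 2, 1, 2 and 1 of the 4 were called higher in WT females, Cyp2b-null females, WT males and Cyp2b-null males. In the same order 0, 0, 1 and 0 were then called lower. P4hb (chr11:120560298-120573253), the classical disulfide isomerase and a subunit of collagen prolyl hydroxylase, rose in females. It was at 1225, 1262, 1274 and 1364 CPM in ND-fed WT females and 1696, 1330.1, 1813 and 1874 after CDAHFD, with CDAHFD replicate 2 inside the ND range. Cyp2b-null females had 1320.3, 1338, 1260.0 and 1222 on ND and 1725, 1541, 1927 and 1801 on CDAHFD, without overlap. In males the levels were 1750.2, 1976, 1688 and 1681 (WT, ND), 2279.5, 2184, 1824 and 1969.8 (WT, CDAHFD), 1709, 1730.3, 1711 and 1512 (Cyp2b-null, ND) and 1936, 2143, 1762 and 2055 (Cyp2b-null, CDAHFD). The rise was 0.41 ± 0.12 in WT females (adjusted p = 0.0172) and 0.47 ± 0.12 in Cyp2b-null females (0.00671), and the male values of 0.22 and 0.25 did not pass (0.170 and 0.114). Without CDAHFD-fed WT replicates 3 or 4 (log2 change 0.36 to 0.37, adjusted p = 0.0560 to 0.0575) the WT female call was lost. Pdia4, an isomerase that works with BiP, fell in WT females (-0.69), WT males (-0.88) and Cyp2b-null males (-0.64). Its call was lost in WT females without ND-fed WT replicate 1 or CDAHFD-fed WT replicates 2 or 4 (log2 change -0.62 to -0.39, adjusted p = 0.0526 to 0.105) and in Cyp2b-null males without ND-fed Cyp2b-null replicate 1 or CDAHFD-fed Cyp2b-null replicate 3 (log2 change -0.57 to -0.52, adjusted p = 0.0501 to 0.0561). Pdia3, the partner of the lectin chaperones, fell in Cyp2b-null males (change of -0.41 ± 0.15 on the log2 scale, adjusted p = 0.0366), a call lost in 5 of 8 fits without a single library, namely ND-fed Cyp2b-null replicates 1, 2 or 3 or CDAHFD-fed Cyp2b-null replicates 1 or 3 (log2 change -0.39 to -0.35, adjusted p = 0.0783 to 0.109). Pdia6 had log2 changes from -0.16 to 0.28 and was not called. The lectin chaperones calreticulin (Calr) and calnexin (Canx), which retain glycoproteins until they fold, were called lower once each. With library size scaling neither was called lower, and 1 was called higher in WT males. Calr fell in Cyp2b-null males (change of -0.41 ± 0.16 on the log2 scale, adjusted p = 0.0440), not without ND-fed Cyp2b-null replicates 1, 2 or 3 or CDAHFD-fed Cyp2b-null replicates 1 or 3 (log2 change -0.42 to -0.34, adjusted p = 0.0658 to 0.127). Canx fell in Cyp2b-null females (change of -0.37 ± 0.12 on the log2 scale, adjusted p = 0.0212), not without ND-fed Cyp2b-null replicate 3 or CDAHFD-fed Cyp2b-null replicate 2 (log2 change -0.35 to -0.35, adjusted p = 0.0508 to 0.0520).

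Among the sensors, their transcription factors and protease no member was called in WT females with TMM scaling, while the PERK gene rose in males. With library size scaling 3, 2, 2 and 5 of these 7 were called higher in WT females, Cyp2b-null females, WT males and Cyp2b-null males. In the same order 0, 1, 0 and 0 were then called lower. Eif2ak3 (chr6:70844484-70905241) stood at 27.9, 14.1, 31.6 and 22.96 CPM in ND-fed WT males and 37.7, 34.1, 41.6 and 32.1 in CDAHFD-fed WT males. Cyp2b-null males had 12.01, 14.8, 10.3 and 17.3 on ND and 25.9, 32.5, 28.9 and 36.5 on CDAHFD. Diets did not overlap in either male group. In females the levels were 21.5, 26.01, 18.2 and 17.8 on ND and 29.5, 26.7, 30.3 and 27.02 on CDAHFD in WT, and 20.9, 17.3, 16.1 and 28.6 on ND and 24.1, 27.3, 19.6 and 34.02 on CDAHFD in Cyp2b-null mice. The WT female diets also did not overlap, by a narrow margin. Eif2ak3 rose in Cyp2b-null males (change of 1.20 ± 0.21 on the log2 scale, adjusted p = 9.52e-05) and in WT males (change of 0.59 ± 0.20 on the log2 scale, adjusted p = 0.0232), the latter not without ND-fed WT replicates 2 or 4 or CDAHFD-fed WT replicate 3 (log2 change 0.40 to 0.57, adjusted p = 0.0519 to 0.0772). In females the values were 0.48 ± 0.19 (WT, adjusted p = 0.0788) and 0.36 ± 0.19 (Cyp2b-null, adjusted p = 0.166). They passed without ND-fed WT replicate 2 (log2 change 0.59, adjusted p = 0.0455) in WT and without ND-fed Cyp2b-null replicate 4 (log2 change 0.57, adjusted p = 0.0369) in Cyp2b-null females.

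Ern1 (chr11:106397620-106487796), which encodes IRE1 alpha, was low in level and fell in 1 group. Cyp2b-null females had 40.5, 52.2, 40.3 and 46.3 CPM on ND and 19.9, 24.3, 6.07 and 28.7 on CDAHFD, and WT females had 35.4, 38.3, 22.6 and 42.1 on ND and 25.8, 20.3, 35.7 and 17.96 on CDAHFD. CDAHFD-fed Cyp2b-null replicate 3, which the heat maps of the study leave out, was the lowest of all 32 livers. In males the levels were 32.4, 51.5, 36.2 and 50.7 on ND and 42.9, 33.3, 33.7 and 35.1 on CDAHFD in WT, and 33.9, 34.9, 28.2 and 42.8 on ND and 22.9, 30.7, 40.2 and 42.4 on CDAHFD in Cyp2b-null mice. Ern1 fell in Cyp2b-null females (change of -1.14 ± 0.30 on the log2 scale, adjusted p = 0.00685), and the call held in all 8 fits without a single library. Values elsewhere were -0.46 (WT females), -0.23 (WT males) and -0.032 (Cyp2b-null males), none called, and both male values turned positive with library size scaling.

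Atf6 (chr1:170704457-170868585) was lower on CDAHFD in Cyp2b-null females. The latter had 115, 109.9, 103 and 105 CPM on ND and 78.7, 75.03, 52.1 and 92.2 on CDAHFD, with no overlap. WT females had 100.2, 116, 72.4 and 78.4 on ND and 77.9, 62.1, 102 and 75.1 on CDAHFD. Levels in males were 101, 121, 120.1 and 156 (WT, ND), 101, 139, 107 and 99.8 (WT, CDAHFD), 107, 116, 99.2 and 103 (Cyp2b-null, ND) and 104, 108, 95.5 and 107 (Cyp2b-null, CDAHFD). The call in Cyp2b-null females (change of -0.51 ± 0.18 on the log2 scale, adjusted p = 0.0382) was lost without ND-fed Cyp2b-null replicates 1, 2, 3 or 4 or CDAHFD-fed Cyp2b-null replicates 1, 2 or 3 (log2 change -0.54 to -0.36, adjusted p = 0.0503 to 0.107). The other log2 changes lay between -0.18 and -0.034, none called and each positive with library size scaling, with 95% intervals of -0.54 to 0.17 in WT females, -0.41 to 0.098 in WT males and -0.29 to 0.22 in Cyp2b-null males.

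Xbp1 (chr11:5520641-5525993), the transcription factor spliced by IRE1, was not called in any comparison with TMM scaling. It stood at 213, 181, 186 and 197 CPM in ND-fed and 207, 194, 217 and 175 in CDAHFD-fed WT females, and at 221, 196, 171 and 205 on ND and 209, 218, 266 and 204 on CDAHFD in Cyp2b-null females. In males it was at 243, 244, 240.1 and 314 on ND and 225, 211, 224 and 172 on CDAHFD in WT, and at 211, 164, 303 and 249 on ND and 293, 228, 216 and 261 on CDAHFD in Cyp2b-null mice. The diets overlapped in both female comparisons and in Cyp2b-null males, while all 4 ND-fed WT males were above the CDAHFD-fed WT males. The 95% intervals of the log2 change were -0.18 to 0.30 in WT females, -0.04 to 0.44 in Cyp2b-null females, -0.63 to -0.011 in WT males and -0.20 to 0.42 in Cyp2b-null males. In WT males the interval excluded 0 although the unadjusted p of the edgeR test was not under 0.05, as the normal approximation gives narrower intervals than the test. Mbtps1, the S1P protease, fell in Cyp2b-null females (change of -0.38 ± 0.12 on the log2 scale, adjusted p = 0.0179), not without ND-fed Cyp2b-null replicate 2 (log2 change -0.35, adjusted p = 0.0532). Creb3l3, a liver-enriched ER-anchored transcription factor, fell in Cyp2b-null males (change of -0.36 ± 0.11 on the log2 scale, adjusted p = 0.0116).

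Several ERAD genes fell in both sexes and genotypes. Called lower were 4 of 10 in WT females, 4 of 10 in Cyp2b-null females, 5 of 10 in WT males and 5 of 10 in Cyp2b-null males, and only Edem2 was called higher. When libraries were scaled by size alone 2, 3, 2 and 1 of the 10 were called lower and 2, 2, 2 and 3 higher, in the same order. Their summed level ranged over 1665 to 1941 CPM on ND and 1168 to 1239 CPM on CDAHFD in WT females, and over 1459 to 1840.3 and 1158 to 1443 CPM in Cyp2b-null females. In WT males the ranges were 1624 to 2095 CPM on ND and 1309 to 1540.0 CPM on CDAHFD, and in Cyp2b-null males 1555 to 1732 and 1187 to 1389 CPM. No ND-fed liver overlapped the CDAHFD-fed livers of its genotype and sex, a description of a sum to which Herpud1 and Os9 add most.

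Herpud1 (chr8:94386429-94395371) encodes an ER membrane scaffold of the degradation complex and is a classical ER stress gene. ND-fed WT females had 291, 710.0, 436 and 412 CPM and CDAHFD-fed WT females 208, 229, 115 and 237. For Cyp2b-null females the levels were 443, 644, 303 and 454 on ND and 162, 216, 249 and 202 on CDAHFD. Here replicate 1 of the ND-fed WT females, the highest for all chaperones, was the lowest of its group. WT males had 456, 196, 308 and 430.0 on ND and 223, 169, 179 and 226 on CDAHFD, and Cyp2b-null males 223, 250.3, 298 and 474 on ND and 197, 176, 138 and 199 on CDAHFD. The groups overlapped in WT males only, through ND-fed replicate 2. Herpud1 fell in WT females (change of -1.20 ± 0.26 on the log2 scale, adjusted p = 0.00152), Cyp2b-null females (change of -1.13 ± 0.26 on the log2 scale, adjusted p = 0.00226), WT males (change of -0.80 ± 0.23 on the log2 scale, adjusted p = 0.0114) and Cyp2b-null males (change of -0.81 ± 0.23 on the log2 scale, adjusted p = 0.00918). The last call was lost without ND-fed Cyp2b-null replicate 4 (log2 change -0.53, adjusted p = 0.0633).

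Edem1, Sel1l and Derl2 act in recognition and retrotranslocation of misfolded glycoproteins. Sel1l, the adaptor of the Hrd1 ligase, had group means of 182 ± 44.2 and 104 ± 14.04 CPM in ND-fed and CDAHFD-fed WT females, and 261 ± 58.6 and 136 ± 13.7 in WT males. Its log2 changes were -0.78, -0.97, -0.94 and -0.54 in WT females, Cyp2b-null females, WT males and Cyp2b-null males, with adjusted p from 2.68e-05 to 0.00408. Edem1, a mannosidase-like factor that marks glycoproteins for disposal, changed by -0.79, -0.62, -0.61 and -0.43 in the same order. Derl2, a derlin of the channel, changed by -0.64, -0.66, -0.46 and -0.92, and its WT male call was lost without ND-fed WT replicates 1, 3 or 4 or CDAHFD-fed WT replicates 1, 3 or 4 (log2 change -0.46 to -0.36, adjusted p = 0.0590 to 0.118). With library size scaling the log2 changes of these 3 stayed negative, although Edem1 was then called in WT females alone. Edem2 (chr2:155701673-155729475), the mannosidase that starts the trimming, was higher on CDAHFD.

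Edem2 was at 55.3, 43.6, 55.6 and 56.01 CPM in ND-fed and 60.8, 58.5, 92.5 and 75.9 in CDAHFD-fed WT females, and at 55.6, 50.6, 46.5 and 50.5 on ND and 66.4, 68.2, 115 and 80.8 on CDAHFD in Cyp2b-null females. In males it was at 66.7, 80.2, 82.05 and 81.4 on ND and 98.4, 105, 88.1 and 91.1 on CDAHFD in WT, and at 82.4, 71.98, 68.7 and 56.7 on ND and 77.6, 113, 83.6 and 89.2 on CDAHFD in Cyp2b-null mice. The diets did not overlap except in Cyp2b-null males. CDAHFD-fed replicate 3 was the highest female liver in each genotype. Edem2 rose in Cyp2b-null females (change of 0.72 ± 0.17 on the log2 scale, adjusted p = 0.00298), in Cyp2b-null males (change of 0.38 ± 0.13 on the log2 scale, adjusted p = 0.0291) and, at the edge of the threshold, in WT females (change of 0.47 ± 0.17 on the log2 scale, adjusted p = 0.0486). The WT female call was lost without ND-fed WT replicates 1, 2, 3 or 4 or CDAHFD-fed WT replicates 3 or 4 (log2 change 0.33 to 0.50, adjusted p = 0.0701 to 0.201), and the Cyp2b-null male call without ND-fed Cyp2b-null replicates 2, 3 or 4 or CDAHFD-fed Cyp2b-null replicate 2 (log2 change 0.25 to 0.39, adjusted p = 0.0520 to 0.141). In WT males the value was 0.30 ± 0.13 (adjusted p = 0.0861). Of the other ERAD members, Vcp, which extracts proteins from the membrane, fell in Cyp2b-null males (change of -0.32 ± 0.11 on the log2 scale, adjusted p = 0.0268), not without ND-fed Cyp2b-null replicates 3 or 4 or CDAHFD-fed Cyp2b-null replicates 3 or 4 (log2 change -0.31 to -0.28, adjusted p = 0.0594 to 0.0859). Derl1 and the lectin gene Os9 were not called, with log2 changes from 0.067 to 0.24 and -0.15 to 0.029. Derl3, a derlin prominent in secretory cells such as plasma cells, was near the floor in several livers (0 to 11.3 CPM) and was not called. The 6 plasma cell markers summed to at most 23.4 CPM in any liver, and none of the 3 tested in females or 2 tested in males was called in a diet comparison.

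Syvn1 (chr19:6046576-6053718) encodes Hrd1, the ubiquitin ligase of ERAD, and had, by point estimate, the largest difference in diet change between male genotypes of any member. WT males had 124, 53.6, 116 and 156 CPM on ND and 43.05, 35.2, 47.00 and 35.5 on CDAHFD, and Cyp2b-null males 35.7, 42.4, 40.9 and 58.04 on ND and 33.01, 50.4, 41.3 and 36.5 on CDAHFD. WT females had 169.9, 91.05, 46.8 and 42.1 on ND and 62.1, 60.2, 54.8 and 47.2 on CDAHFD, and Cyp2b-null females 88.6, 43.8, 49.2 and 55.2 on ND and 43.8, 33.6, 67.3 and 60.9 on CDAHFD. Among ND-fed WT livers male replicate 2 was low and female replicate 1 high in its group, and the diets were apart in WT males only. Syvn1 fell in WT males (change of -1.47 ± 0.23 on the log2 scale, adjusted p = 4.23e-05). Its values were -0.62 ± 0.33 in WT females, -0.17 ± 0.33 in Cyp2b-null females and -0.12 ± 0.23 in Cyp2b-null males, none called. The difference between male genotypes in the diet change was 1.36 ± 0.33 and did not pass (unadjusted p = 0.000445, adjusted p = 0.447).

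None of the 6 translocation members was lower in any diet comparison, 3 were higher in WT males and 1 in Cyp2b-null males, and none was called in females. With library size scaling 2, 2, 3 and 5 of the 6 were called higher in WT females, Cyp2b-null females, WT males and Cyp2b-null males, and none lower. Sec61a1 (chr6:88503607-88518800), the pore of the channel, was at 202, 222, 223 and 201 CPM in ND-fed and 294, 289.6, 254 and 252 in CDAHFD-fed WT males, and at 207, 209, 199 and 163 on ND and 208, 329, 244 and 236 on CDAHFD in Cyp2b-null males. In females it was at 243, 191, 186 and 174 on ND and 188, 167, 282 and 207 on CDAHFD in WT, and 232, 207, 217 and 189 on ND and 187, 175, 237 and 218 on CDAHFD in Cyp2b-null mice. The diets were apart in WT males and overlapped in the other groups. Sec61a1 rose in WT males (change of 0.36 ± 0.13 on the log2 scale, adjusted p = 0.0364), not without ND-fed WT replicates 1 or 4 or CDAHFD-fed WT replicates 1 or 2 (log2 change 0.33 to 0.34, adjusted p = 0.0697 to 0.0880). It also rose in Cyp2b-null males (change of 0.39 ± 0.13 on the log2 scale, adjusted p = 0.0234), not without ND-fed Cyp2b-null replicate 4 or CDAHFD-fed Cyp2b-null replicate 2 (log2 change 0.24 to 0.31, adjusted p = 0.0946 to 0.135).

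Serp1 (chr3:58521969-58525884), also known as RAMP4, associates with the channel and protects membrane proteins during stress. Its levels were 352, 367, 365 and 367 CPM in ND-fed WT males and 569, 535, 425 and 472 in CDAHFD-fed WT males, without overlap, against 375, 454, 388 and 368 on ND and 369, 427, 332 and 369.6 on CDAHFD in Cyp2b-null males. In females they were 339.7, 302, 288 and 262 on ND and 342, 263, 387 and 322 on CDAHFD (WT), and 322, 338, 287 and 279.7 on ND and 347, 261, 253 and 348 on CDAHFD (Cyp2b-null). Serp1 rose in WT males (change of 0.47 ± 0.12 on the log2 scale, adjusted p = 0.00380), which held in all 8 fits without a single library, and its value in Cyp2b-null males was -0.078 ± 0.12. The difference between the male genotypes was -0.54 ± 0.16 (adjusted p = 0.562). Ssr3, a subunit of the translocon-associated complex, rose in WT males (change of 0.32 ± 0.12 on the log2 scale, adjusted p = 0.0407), not without ND-fed WT replicates 1, 2, 3 or 4 or CDAHFD-fed WT replicates 1 or 2 (log2 change 0.26 to 0.34, adjusted p = 0.0570 to 0.116). Sec61b, Ssr1 and Ssr2 were not called, with log2 changes from -0.081 to 0.47.

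**Figure D4:**
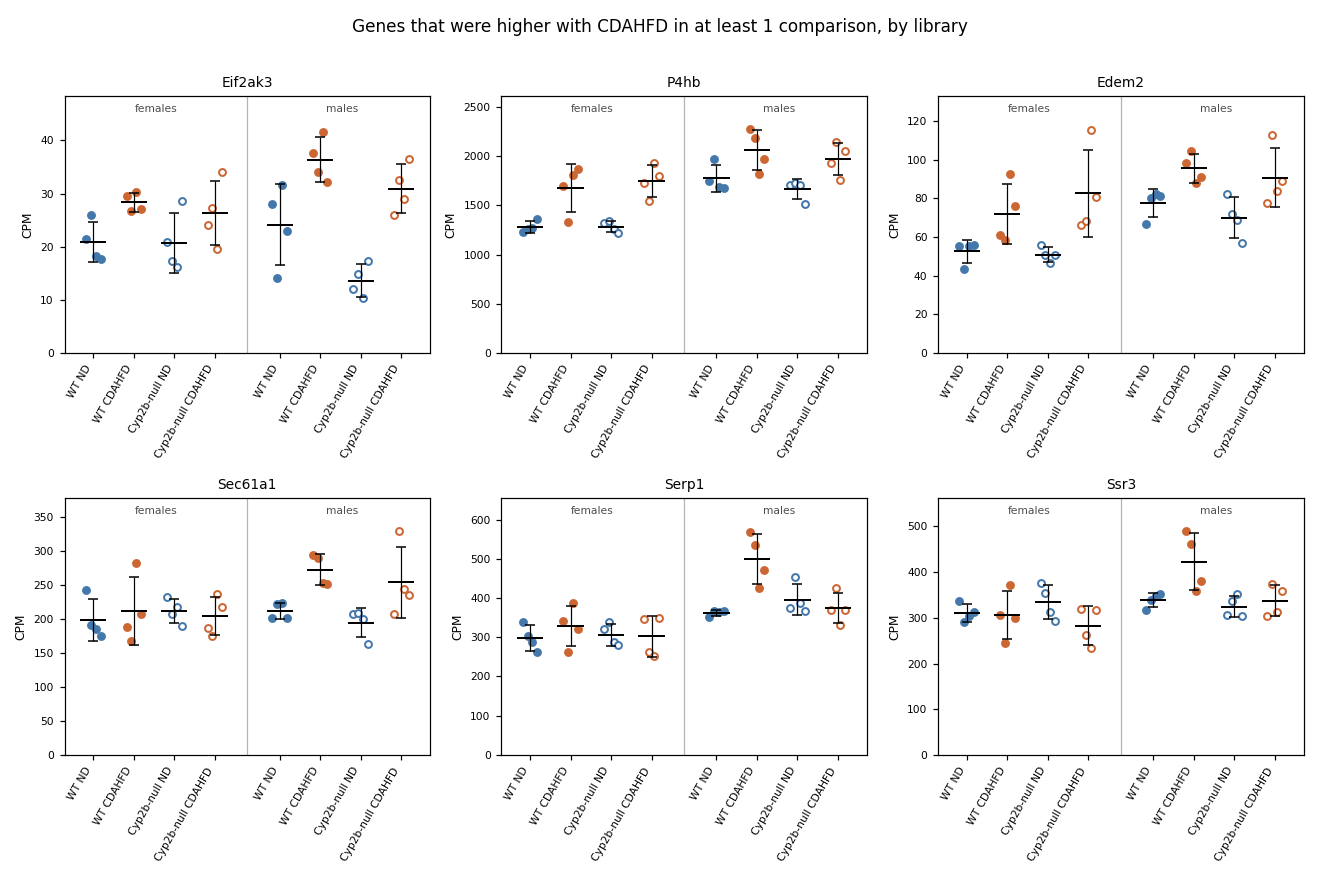
CPM of 6 members that were higher with CDAHFD in at least 1 comparison (Eif2ak3, P4hb, Edem2, Sec61a1, Serp1, Ssr3) in each of 32 livers, drawn as in the plot of summed levels. Eif2ak3 separates the diets in WT females and in both male groups, P4hb in Cyp2b-null mice of both sexes, Edem2 in every comparison except Cyp2b-null males, and Serp1, Sec61a1 and Ssr3 in the WT males.

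Atp2a2 (chr5:122453513-122502225) encodes SERCA2, the pump that fills the ER with the calcium its chaperones need. In WT females it was at 319, 314, 182 and 169.8 CPM on ND and 149.7, 122, 122 and 125 on CDAHFD, and in Cyp2b-null females at 233, 196, 180.5 and 222 on ND and 102, 110.4, 86.7 and 133 on CDAHFD. In WT males it was at 294, 267, 302 and 429 on ND and 164, 170.1, 167 and 158 on CDAHFD, and in Cyp2b-null males at 174, 199, 188 and 208 on ND and 135, 140.5, 138 and 148 on CDAHFD. Every ND-fed liver lay above every CDAHFD-fed liver of its genotype and sex. Non-overlap in the lower direction was seen for 6, 13, 11 and 10 members in WT females, Cyp2b-null females, WT males and Cyp2b-null males, where 12.2%, 15.4%, 12.6% and 17.1% of all genes did so. Atp2a2 fell in WT females (change of -0.90 ± 0.19 on the log2 scale, adjusted p = 0.00131), Cyp2b-null females (change of -0.92 ± 0.19 on the log2 scale, adjusted p = 0.00101), WT males (change of -0.97 ± 0.13 on the log2 scale, adjusted p = 4.44e-06) and Cyp2b-null males (change of -0.45 ± 0.12 on the log2 scale, adjusted p = 0.00692). With library size scaling the last value was -0.083 and was not called.

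Read against the promoter sequences shown above, members with ERSE or ERSE-II in their window had the lower medians of diet change. The 11 such members had medians of -0.45, -0.60, -0.37 and -0.57 in WT females, Cyp2b-null females, WT males and Cyp2b-null males, and the 21 members with a window but neither motif had -0.031, -0.069, -0.15 and -0.032. Of the 11, 5, 4, 5 and 6 were called lower and none higher, and of the 21, 4, 5, 5 and 7 were called lower and 2, 2, 3 and 3 higher. Of all genes, 10.2%, 13.9%, 15% and 17.1% were called lower and 13.9%, 16.9%, 18% and 20.3% higher. Chaperones were Hspa5, Hsp90b1, Dnajc3, Creld2 and Dnajb11 among the 11, and Dnajb9 and Sdf2l1 among the 21. Motif and role were therefore not told apart, and the split was made with TMM scaling only. The motif did not sort the members cleanly: Pdia6 and Derl3 carried ERSE and were never called, and Calr and Canx carried it and were each called once, whereas Edem1, Sel1l and Derl2 fell in all 4 comparisons with no match in their windows. The Edem1 window (chr6:108828391-108828690) lay inside the gene as placed by RefSeq (chr6:108824045-108859356), so the bases before that gene start were not searched. Edem1 was still counted among the 21. No window was on hand for Hyou1, Manf and Atp2a2. These medians are a description of a list, with no test.

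The second question was whether the genotype changed these genes on a given diet. On ND, 3 members were lower in Cyp2b-null than in WT males, where 0.0297% of the 13460 genes tested were called lower: only 5 genes were called in all, the other two being Cyp2b10, a deleted gene, and Cyp2a4. The log2 changes were -1.15 ± 0.17 for Creb3l2 (adjusted p = 0.00631), -0.75 ± 0.12 for Atp2a2 (0.0218) and -1.35 ± 0.23 for Syvn1 (0.0237). At an unadjusted p under 0.05 the count was 12 of 39 members, against 8.26% of all genes, and 29 of 39 had a negative sign. Because the ND-fed WT males also enter the WT male diet comparison, both sets of values share those 4 livers. Hyou1 (-1.14), Dnajb9 (-1.21), Hspa5 (-0.86) and Eif2ak3 (-0.84) had large point estimates that did not pass (adjusted p = 0.0965, 0.148, 0.218 and 0.148). The chaperone sum ranged over 4128 to 6028 CPM in ND-fed WT males and 2804 to 3978 CPM in ND-fed Cyp2b-null males, with the whole WT range above. The summed macrophage markers were 123 ± 40.9 and 119 ± 14.1 CPM in the same groups, and the summed hepatocyte markers 134036 ± 6885 and 122987 ± 6434.

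Creb3l2 (chr6:37327255-37442276) encodes BBF2H7, an ER-anchored transcription factor cut like ATF6. ND-fed WT males had 53.9, 30.6, 44.2 and 54.2 CPM and ND-fed Cyp2b-null males 19.2, 15.9, 20.4 and 26.8, without overlap. On CDAHFD the levels were 43.05, 48.5, 37.2 and 39.8 in WT and 37.8, 40.8, 37.2 and 41.2 in Cyp2b-null males, and these ranges overlapped. In Cyp2b-null males Creb3l2 rose by 0.93 ± 0.17 with diet (adjusted p = 0.000183). That rise and the genotype difference on ND share the same 4 ND-fed Cyp2b-null livers. Females had 39.95, 38.6, 24.6 and 32.4 (WT) and 27.5, 14.3, 22.7 and 33.96 (Cyp2b-null) on ND, and 41.6, 37.1, 27.5 and 37.02 and 27.4, 23.95, 20.3 and 33.5 on CDAHFD. The genotype difference in ND-fed females was -0.46 ± 0.23 (adjusted p = 0.877). Atp2a2 was likewise apart by genotype on ND, in that all 4 WT males were above all 4 Cyp2b-null males. For Syvn1 the ND-fed WT male replicate 2 lay within the Cyp2b-null range, the only overlap among the 3 genes. Non-overlap in the lower direction was seen for 6 of 39 members (Hspa5, Hyou1, Edem1, Sel1l, Creb3l2 and Atp2a2), against 2.03% of all genes.

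These genotype calls were fragile. The Creb3l2 call was lost without ND-fed Cyp2b-null replicate 2 (log2 change -1.05, adjusted p = 0.0557). For Atp2a2 it was lost without ND-fed WT replicate 4 or ND-fed Cyp2b-null replicates 1, 2 or 3 (log2 change -0.76 to -0.58, adjusted p = 0.0620 to 0.139), and for Syvn1 without ND-fed WT replicates 1, 3 or 4 or ND-fed Cyp2b-null replicates 1, 2 or 3 (log2 change -1.33 to -1.15, adjusted p = 0.0577 to 0.150). A fit of only the ND-fed males called none of the 39 (2 of 11953 genes), and the fit of all 8 groups called 1 (3 of 14020 genes). DESeq2 called 7 (72 of 13460 genes), and edgeR without the low-count filter called 11 (170 of 25760 genes). The direction of the 3 did not change under any alternative.

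**Figure D5:**
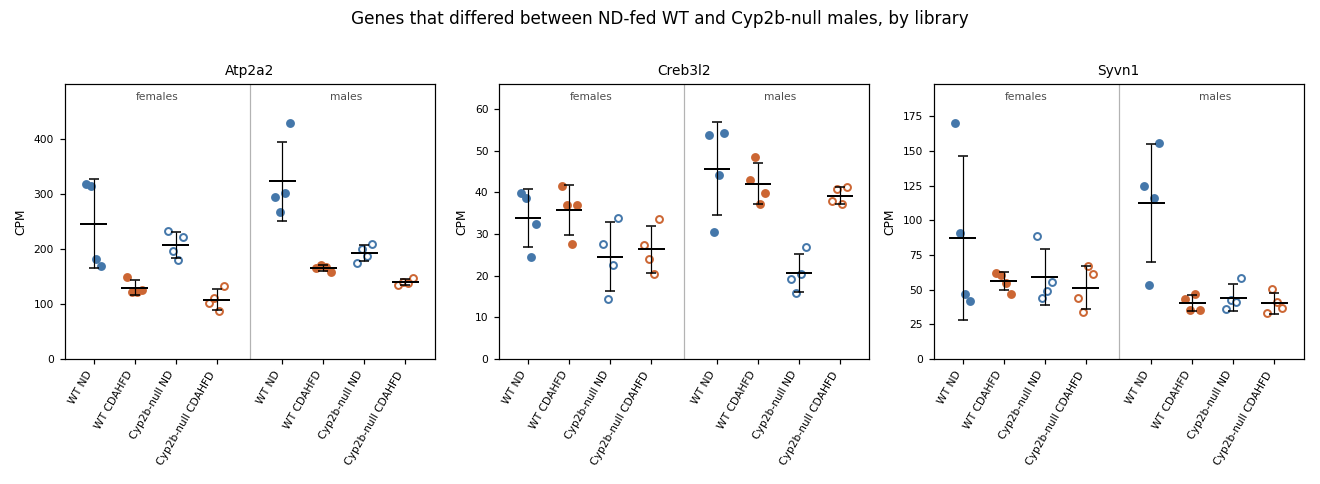
CPM of Atp2a2, Creb3l2 and Syvn1 in each of 32 livers, drawn as in the plot of summed levels. Among males on ND (blue, right of each panel) the filled WT points lie above the open Cyp2b-null points except for 1 WT liver in the Syvn1 panel, and on CDAHFD the genotypes overlap for Creb3l2 and Syvn1 but not for Atp2a2.

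No member was called between genotypes in the other 3 comparisons by edgeR or by DESeq2, where 0.0756% of all genes were called in ND-fed females, 0.0227% in CDAHFD-fed females and 0.0297% in CDAHFD-fed males. At an unadjusted p under 0.05 the counts were 0 of 39 in ND-fed females (5.75% of all genes), 0 in CDAHFD-fed females (5.83%) and 4 in CDAHFD-fed males (3.62%). A negative sign was seen for 33 of 39 members and 9 of 9 chaperones in CDAHFD-fed males, beside 29 of 39 and 8 of 9 in ND-fed males. In females the counts were 19 of 39 and 6 of 9 on ND, and 25 of 39 and 6 of 9 on CDAHFD. The median of all genes lay between -0.011 and 0.0050 in these comparisons. Signs of members measured in the same livers are not independent counts. For Hspa5 the 95% interval of the log2 difference was -0.70 to 0.22 in ND-fed females, -0.58 to 0.34 in CDAHFD-fed females and -0.69 to 0.23 in CDAHFD-fed males. For Herpud1 it was -0.50 to 0.49, -0.43 to 0.57 and -0.62 to 0.29. These intervals do not show that the genotypes had the same level.

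The diet by genotype interaction called 0 of 39 members in females and 0 in males, with edgeR and with DESeq2, where 0% and 0.00743% of all genes were called. At an unadjusted p under 0.05 there were 0 in females (6.28% of all genes) and 8 in males (6.07%). The largest in males were Syvn1 (given above), Creb3l2 (1.05 ± 0.24, adjusted p = 0.447) and Hyou1 (1.02 ± 0.32, adjusted p = 0.637), each less negative or more positive with diet in Cyp2b-null males. Without the low-count filter 4 members were called in males, where 95 of 25760 genes were called. The sex difference of the diet effect called 0 members in WT mice (1 at an unadjusted p under 0.05, 10.3% of all genes) and 0 in Cyp2b-null mice (8, against 19.2%), by both tools, where 0.97% and 3.4% of all genes were called. The sex difference of the genotype effect on CDAHFD called 0 as well (0.00713% of all genes), and 0 at an unadjusted p under 0.05 (3.13%), by edgeR, and 0 by DESeq2. The calls that appear in one sex or genotype only are therefore not shown to differ between them.

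Other genes of the pathway, taken from lists of 86 genes, were described list by list. Of all genes tested, 13.9%, 16.9%, 18% and 20.3% were called higher in WT females, Cyp2b-null females, WT males and Cyp2b-null males. In the same order 10.2%, 13.9%, 15% and 17.1% were called lower. Counts near these shares are no result about a list. PERK branch targets, which ATF4 and CHOP control, were called higher more often than lower, as were all genes: 3 of 10 rose and 0 fell in WT females, 3 and 1 in Cyp2b-null females, 5 and 1 in WT males, and 6 and 0 in Cyp2b-null males. Their summed level was 383 ± 70.8 CPM on ND and 380 ± 49.1 on CDAHFD in WT females, and 370 ± 30.5 and 375 ± 35.2 in Cyp2b-null females. It was 335 ± 30.4 and 363 ± 14.9 CPM in WT males, and 315 ± 32.2 and 382 ± 39.5 in Cyp2b-null males. These levels do not show PERK activity. Atf3, a stress transcription factor, rose from 1.25 to 23.7 CPM in WT females (change of 4.22 ± 0.23 on the log2 scale, adjusted p = 8.97e-11) and from 0.450 to 24.3 CPM in WT males (change of 5.65 ± 0.41 on the log2 scale, adjusted p = 2.81e-09). Trib3, a pseudokinase induced by ATF4, rose from 12.5 to 35.7 CPM in WT females and from 9.72 to 36.9 in WT males. Asns, asparagine synthetase, rose from 6.88 to 23.3 CPM in WT males. Macrophage markers rose in the same comparisons, and their part in these values was not tested.

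Among 12 further oxidation and isomerase genes, 1 rose and 1 fell in WT females and 1 rose and 2 fell in WT males. Fkbp11, a prolyl isomerase, rose in WT females (1.78) and WT males (1.55). Ero1lb, an oxidase that recharges disulfide isomerases, fell in WT males (-0.74), and Tmx1 fell in WT females (-0.49). Of 7 genes of the glycoprotein folding cycle, 0 rose and 1, 2, 3 and 2 fell in WT females, Cyp2b-null females, WT males and Cyp2b-null males. Ganab, the glucosidase II subunit that trims glucose before calnexin binding, fell in all 4, by -0.46 to -0.68. Mogs and Erlec1 fell in WT males (-0.59 and -0.31).

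Of 14 ubiquitin ligase and extraction genes, 0 rose and 2, 2, 4 and 6 fell in the same order. Svip, an inhibitor of ERAD at Vcp, fell in WT females (-0.99) and Faf2 in WT males (-0.38). Of 17 further translocon, signal peptidase and oligosaccharyltransferase genes, 16 were tested, and 0, 1, 1 and 1 rose and 1, 3, 2 and 2 fell. Sec62 fell in all 4, with -0.79 in WT males. Sec63, the BiP-recruiting channel subunit, fell in 3 (-0.41 in WT males), and Ddost rose in WT males (0.36). Of 14 export and retrieval genes, 2, 1, 0 and 2 rose and 2, 3, 4 and 3 fell. Sar1b, the GTPase of lipoprotein export, fell in all 4 (-0.77 in WT females, -1.10 in Cyp2b-null males). Sec23b fell in WT males (-0.85), and Kdelr3, near the floor, went from 0.283 to 2.14 CPM in WT females.

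Cytosolic and mitochondrial heat shock genes, which answer to another stress pathway, gave 1 higher and 2 lower of 10 tested in WT females, 0 and 5 in Cyp2b-null females, 0 and 2 in WT males, and 0 and 1 in Cyp2b-null males. Hsph1 fell in WT females (-1.08) and WT males (-1.05), Dnajb1 fell in WT females (-0.71) and Hspb1 rose there (1.22).

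Levels between genes were compared per kilobase of merged exons (GENCODE vM21 lengths). In ND-fed WT females the highest members were P4hb (448 CPM per kb), Hsp90b1 (428), Calr (348) and Hspa5 (326). The lowest were Derl3 (2.34), Ern1 (4.24), Eif2ak3 (4.31) and Creb3l2 (4.79). In CDAHFD-fed WT females the order at the top was P4hb (587), Calr (369), Hsp90b1 (277) and Hspa5 (194), and the levels of Hsp90b1 and Calr there were not compared by a test.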

How the data were processed

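Liver RNA from 32 mice was extracted with TRIzol, made into NEB Next Ultra libraries and sequenced as paired ends on a NovaSeq. The authors trimmed reads with Trimmomatic, aligned them to GRCm38.p6 with GSNAP and deposited raw counts per gene from Subread featureCounts, in 1 table per sex. Versions, strand and multi-mapping settings are not given in the sources used here. Each column was matched to its sample by name, and 0 columns were left unused. The 39 members, their roles and all other lists were chosen with earlier results of these data known.

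From the counts, edgeR 4.0.16 (R 4.3.3) quasi-likelihood fits with TMM scaling were run per sex over 16 libraries in 4 groups, and over all 8 groups for sex differences. Genes were kept by filterByExpr (smallest count 10, smallest total 15), and Benjamini-Hochberg adjustment ran over all genes tested. Genes with an adjusted p under 0.05 were called. Values after ± are standard errors for log2 changes and SD (n = 4) for levels. Each standard error was worked back from the edgeR test, as the absolute log2 change over the square root of its F statistic. The 95% intervals use the normal approximation, which makes them narrower than the test would. No test adjusted over the members alone was made. Totals of 2906411 to 10166959 counts set the precision. In 48 pairs of replicates the lowest chi-square per degree of freedom was 3.34, so no library was counted as a copy. Members given in every liver, and up to 3 called genes of each other list with the largest WT diet effect, were taken by rule, and 1 gene so taken is not reported here. The procedure was tested on simulated data. Alternatives were DESeq2 1.42.0, other scalings, filters and sets of samples, a block for the replicate number, and omission of each library in turn. Replicate numbers did not pair the livers (r between deviations of same-numbered livers -0.169 to 0.281, median 0.019, 5 of 48 over 0.1). The 2 libraries that the heat maps of the study leave out were kept.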

Additional observations from a re-analysis of the deposited data

Results flagged for a closer look

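In groups of 4 livers, a single liver was set apart where its gap to the nearest of the others, as a share of the group's range, exceeded Dixon's 95% critical value. This was so in 10 of 168 groups looked at (5.95%), and chance gives about 1 in 20 groups. Among ND-fed WT males, replicate 4 was high for Hyou1 (853 CPM, nearest 499), Xbp1 (314, nearest 244) and the summed sensors (925, nearest 803). Replicate 1 of that group was low for Edem2 (66.7 CPM, nearest 80.2) and for the summed translocation genes (1128 CPM, nearest 1213). In ND-fed Cyp2b-null males replicate 4 was low for P4hb (1512 CPM, nearest 1709) and the summed lectin chaperones (1208 CPM, nearest 1463). In ND-fed WT females replicate 2 was low for Edem2 (43.6 CPM, nearest 55.3) and replicate 1 high for the summed disulfide isomerases (2644 CPM, nearest 2287). CDAHFD-fed WT female replicate 1 was high for Atp2a2 (149.7 CPM, nearest 125).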

How the results depend on the processing

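Scaling by library size alone gave 9 higher and 3 lower in WT females, 7 and 7 in Cyp2b-null females, 10 and 7 in WT males, 14 and 3 in Cyp2b-null males, and 1 for the genotype in ND-fed males. The all-gene counts of these diet comparisons are given above, and 3 of 13460 genes were called for the genotype in ND-fed males. That scaling turned positive the diet values of Atf6 (0.14 in WT females, 0.23 in WT males, 0.33 in Cyp2b-null males), Xbp1 (0.066) and Ern1 (0.16) in WT males, and Vcp (0.049), Creb3l3 (0.00044) and Ern1 (0.34) in Cyp2b-null males. DESeq2, RLE scaling and a 1 CPM filter each gave 1 member higher in WT females. With no filter 0 members were called higher in WT females, 1 in Cyp2b-null females and 2 in WT males. Called in either direction were 14, 15 and 17. That setting also called 11 members for the genotype in ND-fed males (170 of 25760 genes) and 4 for the male interaction (95 of 25760 genes). For the sex difference of the diet effect it called 1 (WT, 469 of 27613 genes) and 3 (Cyp2b-null, 923 of 27613 genes). The fit of all 8 groups gave 2 higher in WT males and 1 for the genotype in ND-fed males, where DESeq2 gave 7 and the fit of only the compared groups 0. Beside these genotype counts, 3 of 14020, 72 of 13460 and 2 of 11953 genes were called. The causes were not tested. Leaving out 1 library gave 0 to 3 members higher and 6 to 13 lower in WT females (0 higher without CDAHFD-fed WT female replicate 3, 6 lower without ND-fed WT female replicate 1), 2 to 3 and 9 to 13 in Cyp2b-null females, 1 to 4 and 10 to 14 in WT males (1 higher without ND-fed WT male replicate 4), 2 to 4 and 10 to 17 in Cyp2b-null males, 0 to 6 for the genotype in ND-fed males, 0 to 2 for the male interaction and 0 to 2 for the sex difference in Cyp2b-null mice. Among the 80 single-gene results it reversed 3 uncalled values, all in Cyp2b-null males: Atf6 ranged from -0.068 to 0.0060, Xbp1 from -0.027 to 0.26 and Ern1 from -0.15 to 0.11. With the replicate number as a block the diet counts were 2 higher and 12 lower, 2 and 13, 3 and 13, and 4 and 14, and the genotype count in ND-fed males 3. The fit of only the compared groups gives no interaction. Of 80 single-gene results, 79 kept direction and side of the threshold with RLE, 77 with DESeq2 and 36 with library size scaling. Depth limited Derl3, whose levels reached 0 CPM.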
